A study of Mus musculus with 18 samples.

Results

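St8sia6 heterozygous (het) and wild-type (WT) mice were compared here by the RNA of immune cells of the colon, measured one cell at a time. A deposited cell was taken as an immune cell when it held at least 1 UMI (a unique molecule of RNA) of Ptprc, the pan-leukocyte antigen CD45. It also had to hold 0 UMI of the epithelial gene Epcam, less than 20% mitochondrial UMI and at least 1000 UMI in all. These limits kept 9435 of 21687 colon cells, and 6392 of the 14299 colon cells of het and WT mice. Het mice gave 1898 of them (614, 593 and 691 in libraries 1, 2 and 3), and WT mice gave 4494 (1064, 2237 and 1193). A further 3043 cells came from St8sia6 knockout (KO) mice and entered the same fits, where they helped to estimate the spread. The whole series holds 60272 cells.

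The study carried out 3 runs, each with 1 KO, 1 het and 2 WT mice, and took epithelium and lamina propria of the colon together. Cells were enriched with beads against CD45, marked by genotype with an oligonucleotide-tagged antibody (a hashtag), and pooled before capture. A library in the text is 1 such capture. No treatment is given in the labels, and ages are not used here. Each het value therefore comes from 1 mouse and each WT value from 2 pooled mice, with 3 libraries per genotype. For genes, the p-values describe the spread that remains, KO included, once differences shared by a library are taken out.

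ST8Sia6 is a Golgi enzyme that adds sialic acid to an existing sialic acid on a glycan, making disialic acid. Sialic acids on cell surfaces are read by Siglecs, lectin receptors of which many carry inhibitory motifs and sit on B cells, macrophages and other leukocytes. The series asks how loss of St8sia6 bears on gut inflammation and on Th1 and Th17 programs, the T cell states marked by interferon-gamma and interleukin-17. The het mice keep a functional copy of the gene.

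Cells were split by single marker UMI. T cells held Cd3e (a subunit of the T cell receptor complex), B cells held Ms4a1 (CD20), and the plasma class held Mzb1 (a chaperone of antibody-secreting and marginal zone B cells), in each case with neither of the other markers. Cells with none were called other. Cells with both Ms4a1 and Mzb1 but no Cd3e formed a large further class, which was added after the data had been seen. The T class held 681 het and 1209 WT cells, the B class 287 het and 707 WT, the plasma class 137 het and 262 WT, the other class 215 het and 404 WT, and the Ms4a1+ Mzb1+ class 397 het and 1580 WT cells. The remaining 181 het and 332 WT cells held Cd3e together with a B-lineage marker, and were counted but not tested.

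The markers matched the class names for T and B cells and less well for the plasma class. Of T cells, 94.3% to 95.3% in het and 94.5% to 95.2% in WT libraries held UMI of at least 3 of 8 further T cell markers. Of B cells, 94.7% to 97.5% in het and 97.5% to 99.2% in WT libraries held at least 3 of 7 further B cell markers. In the plasma class, 34.0% to 51.4% of het and 30.1% to 47.8% of WT cells held at least 3 of 7 plasma cell markers, while 51.4% to 74.5% of het and 61.0% to 73.1% of WT cells held at least 3 B cell markers. That class is therefore called Mzb1 single-positive below. Cd79a, a part of the B cell receptor, had a UMI in 99.6% of Ms4a1+ Mzb1+ cells. Igha, the heavy chain of IgA, had a UMI in 73.9% of T cells and in 70.4% of B cells (median depths of 5119 and 3677.5 UMI). Whether it came from RNA outside cells, from doublets or, in B cells, from the cells themselves was not tested.

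Over all member cells, median depth per cell overlapped between genotypes, with medians of 4140.5 to 4607 UMI in het and 4470 to 4655 UMI in WT libraries. It did not overlap in B cells, at 3299.5, 3577.5 and 3290 UMI in het and 3649.5, 3936 and 3683 UMI in WT libraries, or in Ms4a1+ Mzb1+ cells, at 4144, 4506 and 4042.5 UMI in het and 4616, 4867 and 4602 UMI in WT libraries. Summed over cells, het libraries held 3712702, 3635947 and 4190363 UMI and WT libraries held 6897623, 13688061 and 7107424 UMI. The 9 pairs of genotypes within a library shared no cell barcode. Almost every cell had its own genotype's hashtag as the most frequent one, 100% in het and at least 99.8% in WT libraries. The hashtag was less pure in WT cells. At least 80% of hashtag molecules were of the own genotype in 62.7%, 98.1% and 95.9% of het cells, against 33.1%, 42.1% and 33.3% of WT cells. For Ms4a1+ Mzb1+ cells these shares were 44.3%, 96.2% and 95% in het libraries and 6.29%, 19.9% and 5.60% in WT libraries. The main list results on B-lineage cells are therefore also given for the cells at 80% or more, of which 62, 151 and 95 het and 21, 173 and 21 WT cells remained in that class. They numbered 39, 90 and 66 het and 3, 67 and 2 WT B cells, and 23, 35 and 52 het and 20, 40 and 14 WT Mzb1 single-positive cells. The limit also changed depth, since the Ms4a1+ Mzb1+ cells that remained had medians of 5122.5, 4506 and 4033 UMI in het and 9711, 6425 and 6890 UMI in WT libraries. What an impure hashtag does to the results was not tested.

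St8sia6 itself, the sialyltransferase gene on chromosome 2, 13651018 to 13794734 of GRCm38, was low in every class. Over all member cells summed it had 11.3, 6.13 and 10.7 CPM in het libraries, against 19.0, 17.1 and 15.7 CPM in WT libraries. All 3 het sums lay below the 3 WT sums, and the difference did not pass after Benjamini-Hochberg adjustment with edgeR's quasi-likelihood test (log2 fold change -0.89 ± 0.23 (SE), adjusted p = 0.17). In T cells it had 7.75, 0.831 and 0 CPM in het libraries, against 9.61, 10.7 and 6.01 CPM in WT libraries (log2 fold change -1.92 ± 0.69 (SE), adjusted p = 0.642). The groups overlapped there, as they did among Mzb1 single-positive cells (log2 fold change -0.55 ± 0.57 (SE), adjusted p = 0.956) and Ms4a1+ Mzb1+ cells (log2 fold change -0.16 ± 0.29 (SE), adjusted p = 0.931). B cells held 5 UMI of St8sia6 in het and 40 in WT, and other cells 1 in het and 29 in WT, too few for the fit. The sums behind these counts were smaller in het. B cells had 268165 to 407040 UMI in het and 590051 to 1565541 UMI in WT libraries. Other cells had 309532 to 341983 UMI in het and 527984 to 577484 UMI in WT libraries. CPM here and below means UMI counts scaled to library size with TMM factors, and a log2 fold change is het over WT. In such sums, fewer cells of a type and less RNA per cell cannot be told apart.

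Ms4a1+ Mzb1+ cells were the class whose shares did not overlap between genotypes. Ms4a1+ Mzb1+ cells were 22.8%, 26.5% and 14.5% of member cells in het libraries, against 31.4%, 38.9% and 31.4% in WT libraries. Each het share was below each WT share, a difference of -12.7 percentage points (p = 0.1 by a two-sided exact permutation test, the smallest p that 3 against 3 allows; 0.6 adjusted over the 6 classes). T cells were 27.7%, 32.4% and 46.2% in het libraries and 26.2%, 25.3% and 30.6% in WT libraries. Their share was higher in het in 3 of 3 libraries but the groups overlapped (exact permutation p = 0.2). B cells were 11.7% to 18.6% of het and 13.4% to 17.4% of WT cells, Mzb1 single-positive cells 5.90% to 7.96% of het and 4.47% to 7.80% of WT cells, and other cells 8.60% to 14.2% of het and 6.84% to 11.7% of WT cells, all overlapping.

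These shares moved with the hashtag limit and with depth, which was lower in het in the Ms4a1+ Mzb1+ class. Among cells with at least 80% own hashtag, Ms4a1+ Mzb1+ cells were 16.1%, 25.9% and 14.3% in het libraries and 5.97%, 18.4% and 5.29% in WT libraries, the opposite direction. T cells were then 41.3%, 33.0% and 48.1% in het libraries and 52.8%, 50.5% and 63.2% in WT libraries. The limit kept 93.5%, 100% and 100% of T cells in het and 66.7%, 84.2% and 68.8% in WT libraries. It kept 34.2%, 97.8% and 81.5% of B cells in het and 1.90%, 17.2% and 1.25% in WT libraries. Since it kept unlike parts of each class and genotype, shares under it do not estimate those of all member cells. With each cell thinned to 1000 UMI, Ms4a1+ Mzb1+ cells were 4.23%, 7.76% and 3.04% in het and 6.11%, 9.12% and 6.96% in WT libraries, and the groups overlapped. The share was still lower in het within every library. Its means were 5.01% in het and 7.40% in WT after thinning, beside 21.2% and 33.9% before it. Median hashtag counts were 536.5 to 642.5 molecules in het and 502 to 844 in WT Ms4a1+ Mzb1+ cells, and 1807.5 to 2211 in het and 1187 to 1561 in WT T cells.

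**Figure D1:**
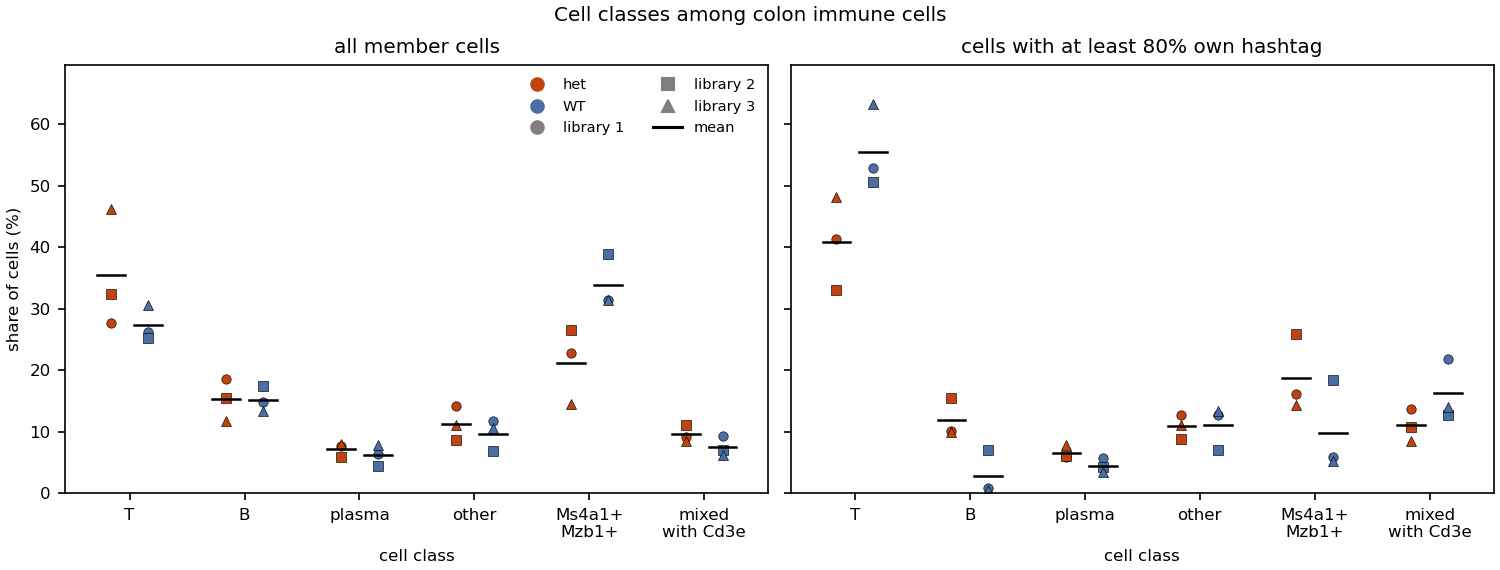
Share of member cells (y axis, %) in each class (x axis) for het (left in each pair) and WT (right), 1 point per library and a bar at the mean, for all member cells (left panel) and for cells with at least 80% own hashtag (right panel). Ms4a1+ Mzb1+ cells were 14.5% to 26.5% of het and 31.4% to 38.9% of WT cells on the left, and 14.3% to 25.9% of het and 5.29% to 18.4% of WT cells on the right.

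Among T cells, the subset shares overlapped between genotypes. Cells with Cd4 alone, the helper T coreceptor, were 21.2%, 10.9% and 11.0% of het and 16.5%, 16.5% and 18.6% of WT T cells. Cells with Cd8a alone, the coreceptor of cytotoxic and many intraepithelial T cells, were 35.9%, 53.6% and 43.3% of het and 39.4%, 41.9% and 40.3% of WT T cells. Cells with Trdc, the delta chain of gamma-delta T cells, were 13.5%, 16.1% and 18.2% of het and 17.6%, 24.1% and 14.5% of WT T cells. The groups overlapped in each case (exact permutation p = 0.4 for Cd4, 0.7 for Cd8a and 0.5 for Trdc; smallest possible 0.1). As a measure of background, 0.503% of B cells held a Cd4 UMI, 0.805% a Cd8a UMI and 0.201% a Trdc UMI, against 17.2%, 55.7% and 18.5% of T cells.

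Summing all member cells, 12 of 13144 genes passed at an adjusted p under 0.05 (0.0913% of genes tested), 5 higher (0.038%) and 7 lower (0.0533%) in het. The genes that fell included members of a list of 15 germinal centre genes, germinal centres being the sites where B cells mutate their receptors. Nuggc, a nuclear GTPase of germinal centre B cells, had 6.34, 8.79 and 6.09 CPM in het libraries, against 15.6, 28.2 and 20.5 CPM in WT libraries (log2 fold change -1.59 ± 0.15 (SE), adjusted p = 0.0459), lower in each het library than in any WT library. Mybl1, a transcription factor of germinal centre B cells, had 4.14, 7.46 and 3.65 CPM in het libraries, against 14.3, 25.4 and 18.1 CPM in WT libraries (log2 fold change -1.94 ± 0.18 (SE), adjusted p = 0.0459), again with every het value below every WT value. All 15 genes of the list were below 0 in log2 fold change, 11 at an unadjusted p under 0.05 (6.68% of all genes) and 10 of them with no overlap between the groups (8.15% of all genes lay wholly below). The list's median was -0.61, against -0.0017 for all genes tested. With cells at 80% own hashtag only, 7 of the 15 were below 0 and the median was 0.06.

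Outside that list 4 genes fell, each with all 3 het values below all 3 WT values. Sh2b2, an adaptor protein of receptor tyrosine kinase signalling, had 10.2, 11.7 and 6.09 CPM in het libraries, against 32.4, 41.5 and 25.6 CPM in WT libraries (log2 fold change -1.84 ± 0.21 (SE), adjusted p = 0.0459). Hspa1b, which encodes the inducible heat shock protein HSP70, had 143, 199 and 118 CPM in het libraries, against 329.8, 388 and 220.4 CPM in WT libraries (log2 fold change -1.02 ± 0.11 (SE), adjusted p = 0.0459). Ocel1 had 22.9, 16.8 and 24.3 CPM in het libraries, against 39.1, 31.8 and 52.5 CPM in WT libraries (log2 fold change -0.94 ± 0.10 (SE), adjusted p = 0.0459). Fh1, the fumarase of the citric acid cycle, had 35.0, 39.4 and 30.4 CPM in het libraries, against 49.1, 53.6 and 45.6 CPM in WT libraries (log2 fold change -0.50 ± 0.06 (SE), adjusted p = 0.0472).

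The genes that rose included several that myeloid cells express. Ccrl2, a chemerin-binding receptor of activated myeloid cells, had 119, 68.7 and 109 CPM in het libraries, against 55.9, 32.3 and 46.8 CPM in WT libraries (log2 fold change 1.13 ± 0.10 (SE), adjusted p = 0.0459). Cxcl16, a chemokine made by macrophages and dendritic cells for CXCR6-bearing T cells, had 67.8, 42.1 and 75.0 CPM in het libraries, against 34.9, 14.5 and 25.4 CPM in WT libraries (log2 fold change 1.34 ± 0.15 (SE), adjusted p = 0.0459). Lair1, an inhibitory collagen receptor of leukocytes, had 24, 18.9 and 29.5 CPM in het libraries, against 12.2, 6.53 and 11.0 CPM in WT libraries (log2 fold change 1.31 ± 0.14 (SE), adjusted p = 0.0459). In these 3 genes each het value was above each WT value. Pf4, a chemokine of platelets and some macrophages, had 38.9, 8.52 and 21.9 CPM in het libraries, against 11.9, 2.95 and 10.0 CPM in WT libraries (log2 fold change 1.46 ± 0.15 (SE), adjusted p = 0.0459), and Ninj1, a membrane protein that ruptures the plasma membrane in lytic death, had 84.1, 49.5 and 68.7 CPM in het libraries, against 52.6, 32.2 and 48.8 CPM in WT libraries (log2 fold change 0.60 ± 0.06 (SE), adjusted p = 0.0459). Both were higher in het in 3 of 3 libraries while the groups overlapped. Of 20 genes of a macrophage list 19 were tested, 18 were above 0, 17 were higher at an unadjusted p under 0.05 (7.55% of all genes) and 10 lay wholly above (7.67%), with a median of 1.18. The 12 calls depended on how the sums were modelled, since edgeR called 0 genes without the library block, 0 of 11763 with cells at 80% own hashtag (802 at an unadjusted p under 0.05) and 216 with receptor genes left out before scaling, and DESeq2 called 232. Without library 1, 2 or 3 it called 2, 7 and 1.

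**Figure D2:**
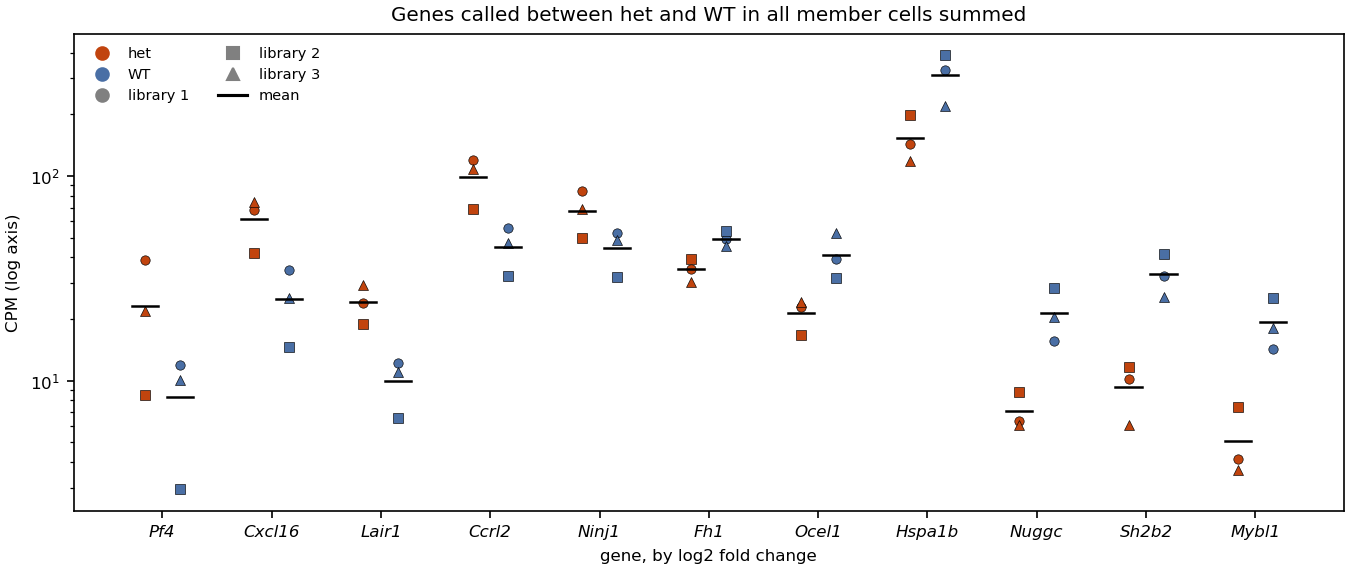
CPM on a log axis (y) of 11 of the 12 genes that passed in all member cells summed (x, ordered by log2 fold change) for het (left in each pair) and WT (right), 1 point per library and a bar at the mean. Het and WT points overlap for Pf4 and Ninj1 and are apart for the other genes shown.

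Hspa1b was below 0 in log2 fold change in every class, and passed only in the sum of all cells. It had 380.3, 448 and 129 CPM in het libraries, against 618, 683 and 514 CPM in WT libraries for B cells (log2 fold change -0.98 ± 0.20 (SE), adjusted p = 0.179) with no overlap. In other cells it had 163, 133 and 109 CPM in het libraries, against 309.8, 370.2 and 199 CPM in WT libraries (log2 fold change -1.09 ± 0.30 (SE), adjusted p = 0.714), again with no overlap. In T cells it had 120.2, 85.6 and 142 CPM in het libraries, against 269, 209.8 and 94.3 CPM in WT libraries (log2 fold change -0.67 ± 0.33 (SE), adjusted p = 0.841), where the groups overlapped. The log2 fold change was -0.85 in Mzb1 single-positive cells and -1.21 in Ms4a1+ Mzb1+ cells, and a test of the difference between T, B, Mzb1 single-positive and other cells gave an unadjusted p of 0.860. Its near-identical neighbour Hspa1a, with which reads can be shared, had a log2 fold change of -0.77 in all cells (adjusted p = 0.156). Over the 17 genes of a heat shock list, 16 were tested in all cells, 5 were above 0, 1 passed, and the median was -0.13.

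The promoters of both genes are shown because both genes were below 0 in log2 fold change. Each is the 250 bases before the RefSeq start site on the minus strand of GRCm38.p6, 5′ to 3′, with the letters GAANNTTC (a heat shock element of adjoining inverted GAA units, the same on both strands) in capitals. The Hspa1b window is chr17:34959239-34959488 and the Hspa1a window is chr17:34972157-34972406.
Hspa1b: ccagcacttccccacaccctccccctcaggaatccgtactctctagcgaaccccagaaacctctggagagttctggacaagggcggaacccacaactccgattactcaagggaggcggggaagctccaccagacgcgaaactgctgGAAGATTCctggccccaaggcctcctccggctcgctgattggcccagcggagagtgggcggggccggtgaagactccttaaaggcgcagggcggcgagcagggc
Hspa1a: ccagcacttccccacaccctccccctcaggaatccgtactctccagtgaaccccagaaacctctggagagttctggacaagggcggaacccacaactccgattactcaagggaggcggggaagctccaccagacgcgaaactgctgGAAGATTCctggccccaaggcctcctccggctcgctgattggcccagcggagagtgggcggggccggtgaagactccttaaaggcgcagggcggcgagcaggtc
Each window held 1 match, starting at position -104 from the start site, and 2199 of 32851 windows of the same length (6.69%) held at least 1. A match of letters is a description and not a site.

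**Figure D3:**
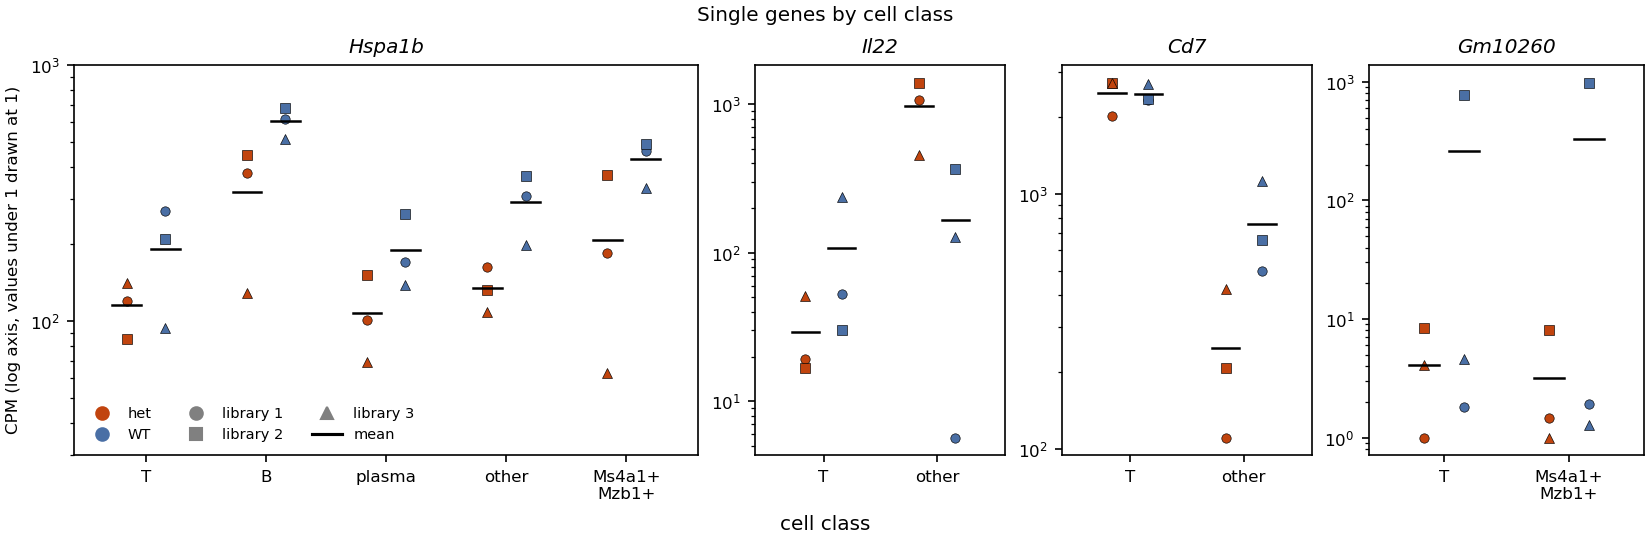
CPM on a log axis (y, values under 1 drawn at 1) of Hspa1b, Il22, Cd7 and Gm10260 by cell class (x) for het (left in each pair) and WT (right), 1 point per library and a bar at the mean. Hspa1b averages lower in het in each class, Il22 and Cd7 differ in opposite directions in other cells, and Gm10260 is high in WT library 2 alone.

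In Ms4a1+ Mzb1+ cells, most genes of cell division and of the germinal centre were below 0 in log2 fold change. The fit called 2 of 9204 genes (0.0217%), both lower, and 879 (9.55%) had an unadjusted p under 0.05. Sh2b2 had 15.9, 12.6 and 16.7 CPM in het libraries, against 73.2, 76.3 and 60.6 CPM in WT libraries (log2 fold change -2.25 ± 0.20 (SE), adjusted p = 0.00341), and each het value was below each WT value. Gm10260, a pseudogene of the ribosomal protein gene Rps18, had 1.45, 8.00 and 0 CPM in het libraries, against 1.92, 978 and 1.28 CPM in WT libraries (log2 fold change -6.61 ± 0.60 (SE), adjusted p = 0.00341). WT library 2 alone was high, and since reads of such a copy can be split with its parent gene the value is uncertain. DESeq2 called 15 genes (1 higher, 14 lower), edgeR called 0 of 5805 at 80% own hashtag, and it called 18 when receptor genes were left out before scaling. Without library 1, 2 or 3 it called 4, 1 and 4.

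The whole cell cycle list lay below 0 in that class. All 25 of its genes were below 0, 24 had an unadjusted p under 0.05 and 22 had every het value below every WT value, while 5.3% of all genes were lower at that p and 7.84% lay wholly below. Median depth was lower in each het library of the class than in any WT library, and its part in the result was not tested. None passed after adjustment, and the median log2 fold change was -1.05 against 0.01 for all genes tested. Mcm5, a subunit of the replicative helicase, had 15.9, 29.7 and 18.6 CPM in het libraries, against 60.8, 51.6 and 84.5 CPM in WT libraries (log2 fold change -1.52 ± 0.26 (SE), adjusted p = 0.162). Mcm6, another subunit, had 59.4, 76.6 and 63.1 CPM in het libraries, against 107, 113 and 127 CPM in WT libraries (log2 fold change -0.79 ± 0.14 (SE), adjusted p = 0.162). Lig1, the ligase that joins Okazaki fragments and which was among the 10 smallest p, had 20.3, 14.9 and 22.3 CPM in het libraries, against 44.0, 44.4 and 61.9 CPM in WT libraries (log2 fold change -1.40 ± 0.23 (SE), adjusted p = 0.139). Hmgb2, a chromatin protein of dividing cells, had 425, 542 and 533 CPM in het libraries, against 954, 684 and 858 CPM in WT libraries (log2 fold change -0.74 ± 0.18 (SE), adjusted p = 0.282), and H2afz, a histone variant, had 242, 398 and 386 CPM in het libraries, against 639, 529.8 and 726 CPM in WT libraries (log2 fold change -0.91 ± 0.18 (SE), adjusted p = 0.241). In these 5 genes the het values were all lower.

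Of the 15 germinal centre genes, 12 were lower in het at an unadjusted p under 0.05 (5.3% of all genes) and 1, the chemokine receptor gene Ccr6, was higher (4.25%). The median was -0.52, and 6 lay wholly below (7.84% of all genes). Nuggc had 13.0, 14.9 and 11.1 CPM in het libraries, against 35.4, 54.6 and 49.5 CPM in WT libraries (log2 fold change -1.82 ± 0.26 (SE), adjusted p = 0.0819), Mybl1 had 13.0, 27.4 and 13.0 CPM in het libraries, against 39.3, 52.2 and 51.2 CPM in WT libraries (log2 fold change -1.37 ± 0.22 (SE), adjusted p = 0.137), and in both the het values were all lower. Eif5a2, a paralog of the translation factor eIF5A, had 4.35, 8.00 and 1.86 CPM in het libraries, against 18.7, 37.9 and 11.5 CPM in WT libraries (log2 fold change -2.22 ± 0.32 (SE), adjusted p = 0.0819), and Glrx3, a glutaredoxin of iron-sulfur trafficking, had 94.2, 103 and 108 CPM in het libraries, against 156, 153 and 166 CPM in WT libraries (log2 fold change -0.64 ± 0.11 (SE), adjusted p = 0.162), both wholly below. The 13 genes of the mitochondrial genome were all above 0 (median 0.20), 8 at an unadjusted p under 0.05 (4.25% of all genes) and 8 with each het value above each WT value (6.28%). The median mitochondrial share per cell was 2.17% to 2.24% in het and 1.82% to 1.94% in WT libraries of the class, where depth was lower in het, and the part of depth was not tested. Of these, mt-Co2, a subunit of cytochrome oxidase, had 3889, 3403 and 3529.6 CPM in het libraries, against 3012, 3025 and 3069 CPM in WT libraries (log2 fold change 0.25 ± 0.07 (SE), adjusted p = 0.3).

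The list medians were near 0 in the cells at 80% own hashtag, while part of the genes kept their direction. There, 21 cell cycle genes were tested, 11 were above 0 and the median was 0.10 (-1.03 for the same genes with all cells), and 12 germinal centre genes were tested, 7 were above 0 and the median was 0.05 (-0.49 for the same genes with all cells). The 6 helicase genes Mcm2 to Mcm7 all remained below 0, at -0.47, -0.53, -0.13, -0.89, -0.35 and -0.48 in order, as did Pcna (-0.33, the sliding clamp of DNA polymerase), H2afz (-0.20) and Nuggc (-0.59). The mitochondrial genes had a median of -0.03. Without the top 5% of member cells by UMI, the cell cycle median was -0.39 and 5 genes were lower at an unadjusted p under 0.05. Without library 1 it was -0.68. Markers of plasma cells summed to 4100.1, 862 and 3306 CPM in het and 3936, 3676 and 1293 CPM in WT libraries of this class, so their level varied between libraries within each genotype.

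**Figure D4:**
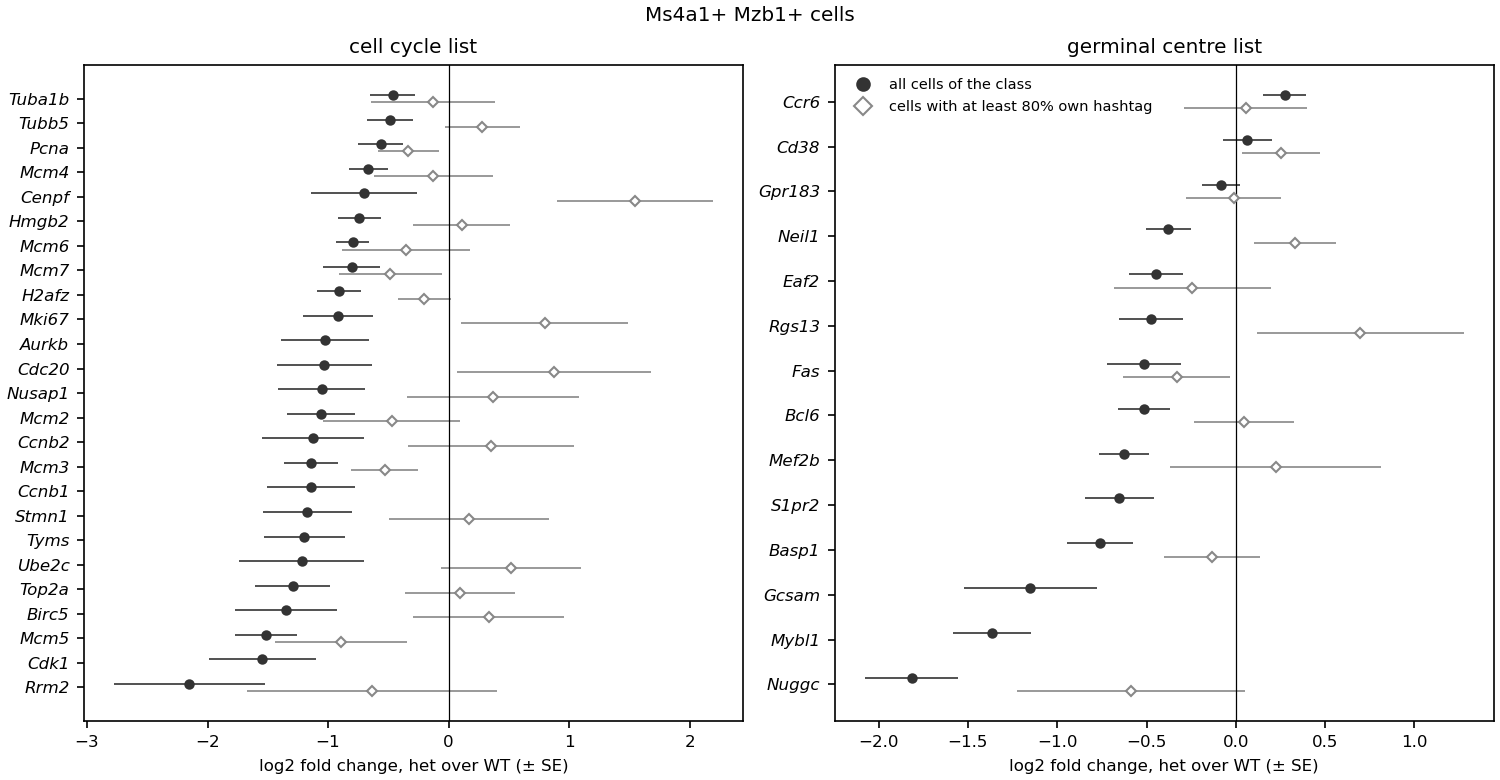
Log2 fold change of het over WT (x, ± SE) for the genes (y) of the cell cycle list (left) and 14 of the germinal centre list (right) in Ms4a1+ Mzb1+ cells, for all cells of the class (filled circles) and for cells with at least 80% own hashtag (open diamonds). The filled circles of all 25 cell cycle genes lie below 0 (median -1.05), while the diamonds of 11 of 21 lie above 0 (median 0.10).

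In T cells, no gene passed among 10567 tested (edgeR), 639 (6.05%) had an unadjusted p under 0.05 (414 higher and 225 lower in het), and DESeq2 called 30. Without library 1, 2 or 3 edgeR called 20, 0 and 8, and it called 79 with het and WT sums alone. The 10 smallest p, none past adjustment, were led by genes of myeloid cells. Csf1r, the receptor for macrophage colony-stimulating factor, had 111, 90.6 and 75.5 CPM in het libraries, against 46.3, 19.8 and 39.8 CPM in WT libraries (log2 fold change 1.45 ± 0.23 (SE), adjusted p = 0.0811). Il1b, the inflammatory cytokine of macrophages and neutrophils, had 578, 332 and 371 CPM in het libraries, against 306, 136 and 256 CPM in WT libraries (log2 fold change 0.91 ± 0.14 (SE), adjusted p = 0.0754), and Ccrl2 had 174, 103 and 97.6 CPM in het libraries, against 86.5, 50.5 and 67.0 CPM in WT libraries (log2 fold change 0.86 ± 0.12 (SE), adjusted p = 0.0754). In these 3 genes the het values were all higher. Pxdc1 (1.49), Cyp4f18 (2.32), Ms4a6c (1.0) and Lgmn (1.34, a lysosomal protease) were also above 0 in log2 fold change. Ocel1 had 24.2, 16.6 and 30.8 CPM in het libraries, against 42.1, 34.7 and 65.2 CPM in WT libraries (log2 fold change -1.0 ± 0.15 (SE), adjusted p = 0.0754), wholly below as 4.48% of genes were, and Gm10260 had 0, 8.31 and 4.07 CPM in het libraries, against 1.80, 776 and 4.62 CPM in WT libraries, high in WT library 2 alone.

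The macrophage list behaved likewise. Of its 20 genes, 19 were tested in T cells, 17 were above 0, 16 were higher at an unadjusted p under 0.05 (3.92% of all genes) and 7 lay wholly above (5.23%), with a median of 1.12 and no gene past adjustment. Lyz2, the macrophage lysozyme, had 1327, 1132 and 671 CPM in het libraries, against 674, 228 and 509 CPM in WT libraries (log2 fold change 1.28 ± 0.30 (SE), adjusted p = 0.255), higher in each het library than in any WT library but for het library 3. Apoe, the apolipoprotein of tissue macrophages, had 1363, 480.5 and 980.3 CPM in het libraries, against 801, 224 and 326 CPM in WT libraries (log2 fold change 1.12 ± 0.20 (SE), adjusted p = 0.135), with overlap. MHC class II genes, which mouse T cells hardly express, lay with them: 10 of 11 were above 0 and 8 were higher at that p, with a median of 0.85. Cd74, the class II invariant chain, had 5769, 2984 and 3749 CPM in het libraries, against 4190.1, 1309 and 1927 CPM in WT libraries (log2 fold change 0.85 ± 0.18 (SE), adjusted p = 0.201), and H2-Eb1, a class II beta chain, had 1869.8, 883 and 1168 CPM in het libraries, against 1350.05, 213 and 602 CPM in WT libraries (log2 fold change 1.09 ± 0.27 (SE), adjusted p = 0.323), both higher in het in 3 of 3 libraries with overlap.

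The shares of T cells with such transcripts overlapped. Cells with a UMI of any of 7 macrophage markers were 16.5%, 12.0% and 15.4% of het and 13.6%, 10.8% and 14.0% of WT T cells, and the 7 markers summed to 2792, 2007 and 1706 CPM in het and 1556, 456 and 891 CPM in WT libraries. With those cells left out, a choice made on some of the transcripts measured, 6 macrophage genes were tested and their median was 0.03, against 0.55 for the same 6 genes with all T cells. Apoe was at 1.25 there and at 1.12 with all T cells. Without the top 5% of member cells by UMI, all 19 were tested, 12 were above 0 and the median was 0.12. At 80% own hashtag, 17 of 19 were above 0 and the median was 0.83. Whether these transcripts come from T cells, from doublets or from free RNA was not tested.

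**Figure D5:**
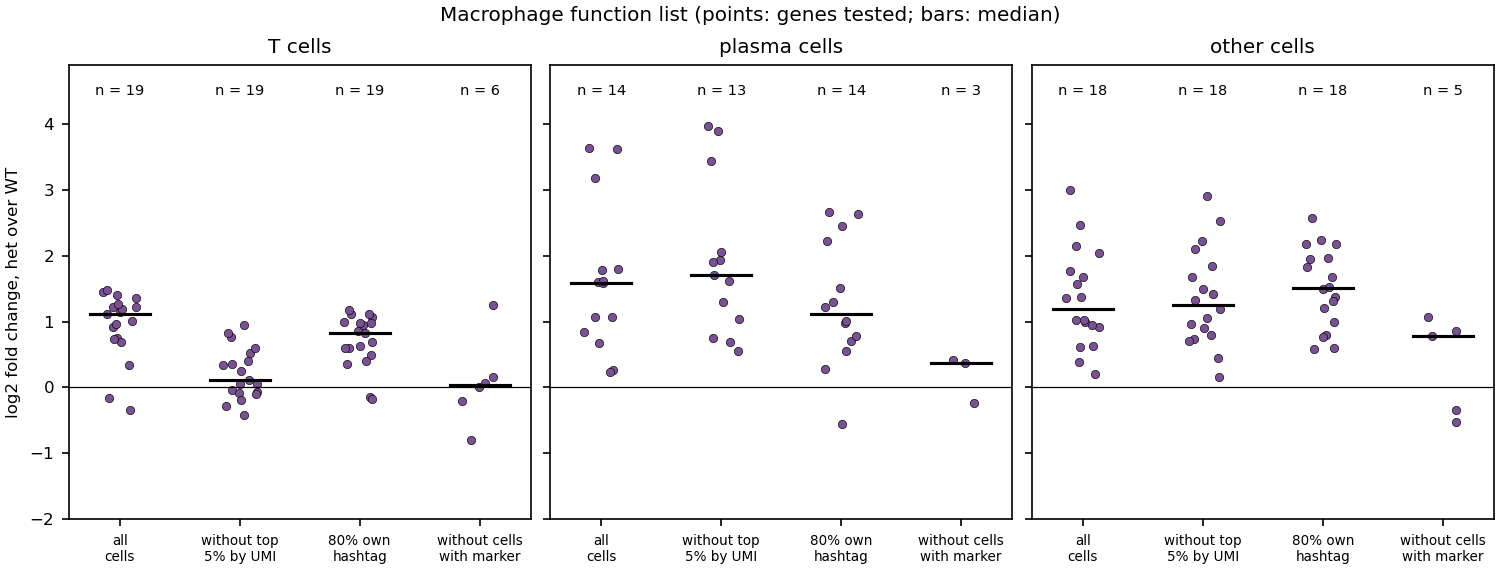
Log2 fold change of het over WT (y) for each tested gene of the macrophage list (points, with their number above and a bar at the median) in T, Mzb1 single-positive (plasma) and other cells, under 4 choices of cells (x). In T cells the median is 1.12 with all cells, 0.12 without the top 5% by UMI. The 6 genes tested without cells holding a marker UMI have a median of 0.03, and of 0.55 with all cells.

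No Th1 or Th17 gene of T cells passed. Ifng, the cytokine of Th1 cells, had 104, 121 and 119.6 CPM in het libraries, against 138, 82.2 and 99.9 CPM in WT libraries (log2 fold change 0.11 ± 0.30 (SE), adjusted p = 0.988). Il17a, the Th17 cytokine, had 383, 103 and 121 CPM in het libraries, against 356, 143 and 365 CPM in WT libraries (log2 fold change -0.58 ± 0.60 (SE), adjusted p = 0.946). Il22, a cytokine that acts on epithelium, had 19.4, 16.6 and 51.1 CPM in het libraries, against 52.9, 30.1 and 239 CPM in WT libraries (log2 fold change -1.78 ± 0.92 (SE), adjusted p = 0.844). The 3 cytokines overlapped between genotypes, and Il17a was high in library 1 of het and in libraries 1 and 3 of WT. Of 20 Th1 genes 19 were tested and 15 were above 0 (median 0.06), 1 at an unadjusted p under 0.05, and of 18 Th17 genes 8 were above 0 (median -0.01), 2 higher at that p. Of all genes tested in T cells, 3.92% were higher and 2.13% lower at that p. Tbx21, the Th1 master regulator (log2 fold change 0.22 ± 0.16 (SE), adjusted p = 0.906), Foxp3, that of regulatory T cells (log2 fold change -0.53 ± 0.60 (SE), adjusted p = 0.946), and Il17f (log2 fold change -1.13 ± 0.58 (SE), adjusted p = 0.844) did not pass either. At 80% own hashtag the log2 fold change of Il17a was 1.16 and that of Il17f 1.75, opposite in direction.

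Other T cell programs gave no call. Gzmb, a granzyme of cytotoxic cells, had 991, 2437 and 1941 CPM in het libraries, against 1911, 1841 and 1684 CPM in WT libraries (log2 fold change -0.05 ± 0.26 (SE), adjusted p = 0.999), and Ccl5, a chemokine of effector T cells, a log2 fold change of 0.16. Of 17 cytotoxic genes 16 were tested and 12 were above 0 (median 0.22). Klf2, which keeps T cells recirculating, had 880.1, 298 and 479 CPM in het libraries, against 1060.5, 555 and 715 CPM in WT libraries (log2 fold change -0.54 ± 0.22 (SE), adjusted p = 0.75), lower in het within each library while the groups overlapped. Of the 13 naive and recirculating genes 12 were below 0, 5 at an unadjusted p under 0.05 (2.13% of all genes), with a median of -0.37. The median was 0.16 at 80% own hashtag and -0.08 without library 2. Among 14 tested of 20 sialyltransferase genes 6 were above 0 (median -0.09), and St6galnac3, which adds sialic acid to N-acetylgalactosamine, had a log2 fold change of -0.27 (adjusted p = 0.802). All 14 genes fixed by name for T cells were tested and none passed, and their log2 fold changes lay between -1.78 (Il22) and 0.22 (Tbx21).

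In B cells, 1 of 7050 genes passed (0.0142%), the immunoglobulin segment Igkv12-89. It had 48.8, 86.0 and 84.9 CPM in het libraries, against 3.44, 1.95 and 3.63 CPM in WT libraries (log2 fold change 4.95 ± 0.61 (SE), adjusted p = 0.00113). Every het library was above every WT library, and it was the only call. Without library 1, 2 or 3 the calls numbered 14, 2 and 13. Such segments can mark expanded clones, and their reads can be shared with related segments. Clones were not examined, and the cause of the difference was not tested.

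No B cell gene outside the receptor segments passed, those of the 10 smallest p included. Zfp36l2, an RNA-binding protein that destabilises mRNA, had 449.6, 391 and 247 CPM in het libraries, against 160.1, 223 and 191 CPM in WT libraries (log2 fold change 0.91 ± 0.17 (SE), adjusted p = 0.114). Ptpn22, a phosphatase of antigen receptor signalling, had 77.1, 77.1 and 59.0 CPM in het libraries, against 22.4, 42.9 and 36.3 CPM in WT libraries (log2 fold change 1.02 ± 0.27 (SE), adjusted p = 0.625), and Ifi30, a lysosomal thiol reductase of antigen processing, had 486, 667 and 679 CPM in het libraries, against 854, 807 and 985 CPM in WT libraries (log2 fold change -0.54 ± 0.13 (SE), adjusted p = 0.476). Zfp36l2 and Ptpn22 lay wholly above and Ifi30 wholly below, which 5.22% and 5.36% of all genes did, and 2.23% of genes were lower at an unadjusted p under 0.05. Fcer1g, the Fc receptor gamma chain of myeloid cells, had 108, 142 and 7.38 CPM in het libraries, against 39.6, 2.60 and 7.27 CPM in WT libraries (log2 fold change 2.81 ± 0.58 (SE), adjusted p = 0.179), where het libraries 1 and 2 were high. Markers of macrophages summed to 558, 25.8 and 33.6 CPM in het and 57.7, 19.2 and 74.6 CPM in WT B cells. Those of NK cells and ILC1 summed to 51.6, 40.1 and 0 CPM in het and 14.8, 21.1 and 8.47 CPM in WT B cells. Cells with at least 3 NK cell and ILC1 markers were 0.877%, 1.09% and 0% of het B cells and 0% in each WT library. Which cells gave Fcer1g was not tested.

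No Siglec gene of B cells passed, though these receptors read sialic acid. Cd22 had 146, 202 and 232 CPM in het libraries, against 181, 194 and 159.9 CPM in WT libraries (log2 fold change 0.09 ± 0.17 (SE), adjusted p = 0.984), and Siglecg had 134, 142 and 144 CPM in het libraries, against 138, 178 and 144 CPM in WT libraries (log2 fold change -0.14 ± 0.16 (SE), adjusted p = 0.965). Both encode inhibitory coreceptors of the B cell receptor, and the groups overlapped in both. Ighm, the IgM heavy chain, had 624, 715 and 583 CPM in het libraries, against 745, 629 and 618 CPM in WT libraries (log2 fold change -0.05 ± 0.13 (SE), adjusted p = 0.993). Of 15 germinal centre genes 8 were tested and 4 were above 0 (median 0.01). Mki67, a gene of dividing cells, had 43.7, 11.9 and 59.0 CPM in het libraries, against 24.1, 11.0 and 25.4 CPM in WT libraries (log2 fold change 0.94 ± 0.42 (SE), adjusted p = 0.931). All 13 mitochondrial genome genes were above 0 (median 0.23), 7 of them wholly above (5.22% of all genes) and 4 at an unadjusted p under 0.05 (3.01%), among them mt-Co1 with 5452, 5468 and 5401 CPM in het libraries, against 4572, 4747 and 4664 CPM in WT libraries (log2 fold change 0.22 ± 0.11 (SE), adjusted p = 0.938). Median depth was lower in every het library of B cells than in any WT library, and its part was not tested. At 80% own hashtag 11 were tested and none was above 0 (median -0.28), but that fit held 3, 67 and 2 WT cells and tested 298 genes, so it says little. Of 15 genes fixed by name for B cells 14 were tested and none passed, with log2 fold changes between -0.27 (Fcer2a, the IgE receptor CD23) and 0.94 (Mki67).

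Among Mzb1 single-positive cells, no gene passed among 6209 (edgeR), 355 (5.72%) had an unadjusted p under 0.05, and DESeq2 called 12. Without library 2 edgeR called 1. Macrophage genes lay above 0 together. All 14 tested of the 20 listed were above 0, 9 at an unadjusted p under 0.05 (3.14% of all genes) and 9 wholly above (5.75%), with a median of 1.59 (1.03 without library 1). C1qa, a chain of the complement protein C1q that tissue macrophages secrete, had 265, 114 and 238 CPM in het libraries, against 1.84, 10.7 and 43.0 CPM in WT libraries (log2 fold change 3.65 ± 0.68 (SE), adjusted p = 0.659). Its partner chain C1qb had 304, 119.9 and 332 CPM in het libraries, against 3.67, 7.15 and 61.4 CPM in WT libraries (log2 fold change 3.63 ± 0.70 (SE), adjusted p = 0.659). Alox5ap, which serves leukotriene synthesis, had 131, 194 and 143 CPM in het libraries, against 45.9, 42.9 and 64.5 CPM in WT libraries (log2 fold change 1.62 ± 0.24 (SE), adjusted p = 0.636), and in all 3 genes each het library was above each WT library. The log2 fold changes of Ms4a7 (4.54, a gene of tissue macrophages), Mpeg1 (1.66, macrophage perforin-2) and Nr4a2 (1.97, an orphan nuclear receptor) were above 0 as well. Cells with a macrophage marker were 23.4%, 22.9% and 21.8% of het and 11.6%, 16.0% and 16.1% of WT cells of the class. Without them 3 of the listed genes were tested (median 0.38, against 0.85 for the same 3 with all cells). Of 14 tested at 80% own hashtag 13 were above 0 and the median was 1.12. Macrophage genes were not alone in this. Markers of dendritic cells summed to 134, 147 and 123 CPM in het and 25.1, 41.7 and 84.9 CPM in WT libraries of the class. Cells with at least 3 of them were 4.26%, 5.71% and 9.09% of het and 0%, 1% and 2.15% of WT cells, with no overlap. Markers of plasmacytoid dendritic cells, at 617, 598 and 427 CPM in het and 279, 434 and 419 CPM in WT libraries, overlapped.

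No antibody gene of that class passed. Igha had 23203, 24654 and 24544 CPM in het libraries, against 29113, 34557 and 16486 CPM in WT libraries (log2 fold change -0.11 ± 0.40 (SE), adjusted p = 1), and Jchain, which joins IgA and IgM into polymers, had 31564, 29772 and 46952 CPM in het libraries, against 38793, 38170.5 and 27854 CPM in WT libraries (log2 fold change 0.04 ± 0.40 (SE), adjusted p = 1). The genotypes overlapped in both. Ighg2c, an IgG heavy chain, had 2.98, 5.71 and 0 CPM in het libraries, against 1482, 339 and 1.54 CPM in WT libraries (log2 fold change -7.08 ± 2.01 (SE), adjusted p = 0.702), where WT libraries 1 and 2 were high. Iglc1, a lambda light chain, had 161, 223 and 311 CPM in het libraries, against 669, 1944 and 358 CPM in WT libraries (log2 fold change -2.02 ± 0.59 (SE), adjusted p = 0.706), wholly lower in het as 4.94% of all genes were. Of 13 immunoglobulin constant genes 11 were tested, 1 was above 0 and 4 were lower at an unadjusted p under 0.05 (2.58% of all genes), with a median of -0.58. None of 8 tested at 80% own hashtag was above 0 (median -0.80). Ighg2b (-2.91) and Ighm (-1.18) were among those 4. Tnfrsf17, the survival receptor BCMA of plasma cells, had 113, 146 and 96.7 CPM in het libraries, against 86.3, 84.6 and 44.5 CPM in WT libraries (log2 fold change 0.73 ± 0.26 (SE), adjusted p = 0.803). The 34 genes of a secretory list had a median of 0.10, 23 of them above 0. Of 14 genes fixed by name for that class 13 were tested and none passed, the highest being Tnfrsf17 with a log2 fold change of 0.73.

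In other cells, those with none of the 3 markers, no gene passed among 7747 (edgeR), 449 (5.8%) had an unadjusted p under 0.05, and DESeq2 called 1, Cd7. Without library 1, 2 or 3 edgeR called 19, 1 and 0. Macrophage genes lay above 0 and cytotoxic genes below, with none past adjustment. Of the macrophage list 18 of 18 tested were above 0, 10 at an unadjusted p under 0.05 (3.42% of all genes) and 6 wholly above (4.93%), with a median of 1.19. Lyz2 had 3752, 3593 and 3664 CPM in het libraries, against 2298, 1328 and 2025 CPM in WT libraries (log2 fold change 1.03 ± 0.29 (SE), adjusted p = 0.714). C1qa had 267, 556 and 1086 CPM in het libraries, against 230.01, 84.0 and 216 CPM in WT libraries (log2 fold change 2.04 ± 0.59 (SE), adjusted p = 0.714), and C1qb had 381, 757 and 1389 CPM in het libraries, against 300.3, 87.4 and 278 CPM in WT libraries (log2 fold change 2.15 ± 0.55 (SE), adjusted p = 0.68). In these 3 genes each het value was above each WT value. The list's median was 1.51 at 80% own hashtag, and 1.58, 1.09 and 1.12 without library 1, 2 or 3.

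The promoters of C1qb and of C1qc, the third chain of the complex, are shown because C1q chains were above 0 together in 2 classes. Each is the 250 bases before the RefSeq start site on the minus strand of GRCm38.p6, 5′ to 3′, with the letters GAGGAA or their reverse complement TTCCTC (the core that PU.1, a transcription factor of myeloid cells, and other ETS factors bind) in capitals. The C1qb window is chr4:136886201-136886450 and the C1qc window is chr4:136892915-136893164.
C1qb: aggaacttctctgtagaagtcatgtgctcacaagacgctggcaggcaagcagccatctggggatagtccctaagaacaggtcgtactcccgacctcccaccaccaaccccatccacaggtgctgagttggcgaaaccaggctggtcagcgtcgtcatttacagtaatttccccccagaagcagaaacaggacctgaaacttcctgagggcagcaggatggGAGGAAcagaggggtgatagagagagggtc
C1qc: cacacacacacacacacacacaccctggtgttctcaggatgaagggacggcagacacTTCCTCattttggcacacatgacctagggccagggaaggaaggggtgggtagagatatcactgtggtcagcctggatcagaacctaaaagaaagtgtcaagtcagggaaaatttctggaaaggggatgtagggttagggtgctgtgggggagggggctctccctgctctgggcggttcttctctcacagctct
Each held 1 match, at position -30 in C1qb and -193 in C1qc, and 7639 of 32851 windows (23.3%) held at least 1. The match is common and describes letters only.

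MHC class II genes of other cells lay above 0 like the macrophage genes, with 10 of 11 above 0 and a median of 0.52. Cd74 had 15133, 18063 and 20515 CPM in het libraries, against 11204, 11047 and 11324 CPM in WT libraries (log2 fold change 0.68 ± 0.20 (SE), adjusted p = 0.714), wholly higher in het, and H2-Eb1 had 3615, 4939 and 6347 CPM in het libraries, against 2713, 1399 and 3511 CPM in WT libraries (log2 fold change 1.06 ± 0.30 (SE), adjusted p = 0.714), also wholly higher. The 7 macrophage markers summed to 4409, 5835 and 7372 CPM in het and 3169, 1706 and 2841 CPM in WT libraries. Cells with at least 3 of them were 6.90%, 19.6% and 22.1% of het and 16.8%, 7.84% and 9.52% of WT other cells, and overlapped. More macrophages and more RNA per macrophage cannot be told apart here. Mast cell markers also varied, at 3435, 4978 and 8769 CPM in het and 3174, 4866 and 9.08 CPM in WT libraries, the last nearly free of them.

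Most cytotoxic and T cell receptor genes of other cells lay below 0. The 8 T cell markers summed to 480, 320 and 491 CPM in het and 581, 803 and 699 CPM in WT libraries, with no overlap. Cells with at least 3 of them were 11.5%, 9.80% and 18.2% of het and 15.2%, 22.2% and 19.0% of WT other cells, and overlapped. Cells with at least 3 of 6 NK cell and ILC1 markers were 3.45%, 7.84% and 2.60% of het and 8%, 4.58% and 17.5% of WT other cells, and overlapped. Fewer such cells and less RNA per cell cannot be told apart here. Cd7, a receptor of T, NK and innate lymphoid cells, had 111, 208 and 424 CPM in het libraries, against 496, 658 and 1119 CPM in WT libraries (log2 fold change -1.68 ± 0.32 (SE), adjusted p = 0.68), and each het value was below each WT value (5.38% of all genes). Of 17 cytotoxic genes 15 were tested, 1 was above 0 and 6 were lower at an unadjusted p under 0.05 (2.38% of all genes), with a median of -0.80 (-0.39 without library 3). Nkg7, a granule protein of killer cells, had 264, 365 and 260.2 CPM in het libraries, against 464, 449 and 905 CPM in WT libraries (log2 fold change -0.97 ± 0.26 (SE), adjusted p = 0.68), and Gzmb had 68.5, 61.4 and 372 CPM in het libraries, against 1093, 353 and 286 CPM in WT libraries (log2 fold change -1.84 ± 0.67 (SE), adjusted p = 0.821). Nkg7 was wholly lower in het, while Gzmb overlapped. Gzma (log2 fold change -0.80 ± 0.66 (SE), adjusted p = 0.938) and Ncr1, the NK receptor NKp46 (log2 fold change -0.34 ± 0.36 (SE), adjusted p = 0.95), did not pass. Of the T cell receptor genes in these Cd3e-negative cells 1 of 15 tested was above 0 (median -0.58), and Trbc1, a receptor beta constant gene, had 19.6, 23.9 and 27.2 CPM in het libraries, against 81.7, 53.1 and 73.9 CPM in WT libraries (log2 fold change -1.54 ± 0.33 (SE), adjusted p = 0.68), wholly lower.

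Il22, which innate lymphoid cells of the gut can make, was above 0 in other cells without passing. It had 1073, 1387 and 454 CPM in het libraries, against 5.70, 363 and 127 CPM in WT libraries (log2 fold change 3.14 ± 0.81 (SE), adjusted p = 0.68), with each het value above each WT value. T cells had the opposite sign, and the test of the difference between classes gave an unadjusted p of 0.00883 and an adjusted p of 0.963. Kit, a receptor on the innate lymphoid cells that make interleukin-22, did not pass (log2 fold change 0.28 ± 0.31 (SE), adjusted p = 0.953). Tmem176b, another gene of those cells and of myeloid cells, had 424, 511 and 554 CPM in het libraries, against 257, 303 and 326 CPM in WT libraries (log2 fold change 0.75 ± 0.27 (SE), adjusted p = 0.821), wholly higher in het. Of 16 genes of a list for those cells 13 were tested and 8 were above 0 (median 0.28). A set of 7 markers of those cells summed to 1540.2, 2213 and 1237 CPM in het and 561, 843 and 675 CPM in WT libraries. These sums did not overlap, but the set holds Il22 itself, so they are not separate from the Il22 result. Cells with at least 3 of the 7 were 3.45%, 9.80% and 6.49% of het and 2.4%, 1.31% and 10.3% of WT other cells, and overlapped. The part of such cells in the Il22 result was not tested. Of 12 genes fixed by name for other cells 11 were tested and none passed, with log2 fold changes between -0.80 (Gzma) and 3.14 (Il22).

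Cell cycle genes of other cells were above 0 in 13 of 18 tested (median 0.48), 6 wholly above (4.93% of all genes). Top2a, the topoisomerase of dividing cells, had 68.5, 81.8 and 154 CPM in het libraries, against 26.6, 25.7 and 49.2 CPM in WT libraries (log2 fold change 1.57 ± 0.30 (SE), adjusted p = 0.68), and Hmgb2 had 434, 406 and 459.9 CPM in het libraries, against 297, 266 and 278 CPM in WT libraries (log2 fold change 0.63 ± 0.17 (SE), adjusted p = 0.68). Both were higher in every het library. The median was -0.02 without the top 5% of cells by UMI, and -0.02 without cells holding a macrophage marker.

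Tested over T, B, Mzb1 single-positive and other cells in 1 model, no gene of 9197 differed between classes in its het against WT change after adjustment (edgeR), and 403 (4.38%) had an unadjusted p under 0.05. Without library 1, 2 or 3 the genes that differed numbered 2, 9 and 8. All were immunoglobulin variable segments, with their largest change in Mzb1 single-positive cells, but for Nkg7. That gene was called without library 3, with a log2 fold change of 4.54 in B cells. Neither Lyz2 nor C1qa differed in any of these fits. In the edgeR model of all libraries their unadjusted p-values were 0.936 for Lyz2 and 0.181 for C1qa.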

How the data were processed

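Single-cell RNA and hashtag counts of 3 pooled colon captures were analysed as raw counts of UMI per gene and cell, as the authors deposited them. Per the labels' protocols the libraries were 10x 5′ libraries with TotalSeq-C hashtags, and the submitters' processing notes name Cell Ranger, Seurat and mm10 with no versions. Each barcode ending took the genotype of its highest median hashtag, since the cells carry no other label. Doublets were not called, and the authors' own doublet handling is not given in the sources used here. UMI were summed per genotype, library and class and tested with edgeR 4.0.16 (R 4.3.3; TMM, filterByExpr, quasi-likelihood F test, library as a block, KO, het and WT in 1 fit), with Benjamini-Hochberg adjustment over all genes tested and a call at an adjusted p under 0.05. The block follows from the shared capture. The correlation of het and WT deviations within a library was 0.21 to 0.40 for T cells, 0.066 to 0.20 for B cells, -0.037 to 0.018 for Mzb1 single-positive cells and -0.15 to 0.017 for other cells. Shares were compared by exact permutation tests. The fits were run on simulated counts that had the same spread for every gene and class. These counts lack the single-library extremes seen here, so they cannot speak for such genes. The classes, members and gene lists were chosen with earlier results of these data known. Genes named were those that passed, or where fewer than 10 passed the 10 with the smallest p, beside fixed genes and up to 4 genes per list. Alternatives were DESeq2 1.42.0, other scalings and filters, hashtag and UMI limits, class rules and leaving out a library. Genes such as H2-Eb1, Tmem176b, Trbc1, Hmgb2, mt-Co1 and mt-Co2 are named as list examples. Promoter windows came from RefSeq (GRCm38.p6), which also gave the coordinates. Intervals on counts are not given for sums, whose precision comes from the 3 libraries. Some genes that the rule names are not reported here.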

Additional observations from a re-analysis of the deposited data

How the results depend on the processing

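Leaving out macrophage marker cells, the wider B and narrower Mzb1 classes, and every fit of double-positive and all cells were chosen after seeing the data. With het and WT sums only, the calls numbered 79 in T cells, 2 in B cells, 1 in double-positive cells and 3 over all cells. DESeq2 called 30 in T cells, 12 in Mzb1 single-positive cells, 1 in other cells, 15 in double-positive cells and 232 over all cells. With no filter on low counts the calls numbered 251, 53, 223, 161, 312 and 105 in T, B, Mzb1 single-positive, other, double-positive and all cells, and St8sia6 in T cells passed at -1.95. With no replicate block double-positive cells had 1 call and all cells had 0, and the counts of the other 4 classes were as with it. At 80% own hashtag B cells (298 genes tested, with 3, 67 and 2 WT cells), double-positive and all cells had 0 calls each. Without immunoglobulin and receptor segments B cells had 3, Mzb1 single-positive cells 5, double-positive cells 18 and all cells 216. The other class rule gave T cells 13 and B cells 3, the wider B class gave 2, and leaving out cells with a macrophage marker UMI gave B cells 3 and double-positive cells 18, with St8sia6 there at 0.094.

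Signs of named genes turned as follows, in log2 fold change. Without cells holding a macrophage marker UMI, Il1b (-0.21) and Ccrl2 (-0.38) in T cells, and Igha (0.067) turned. Without the top 5% of cells by UMI, Apoe (-0.040) and Ifng (-0.089) in T cells, Igha (0.15) and Jchain (-0.18) turned. At 80% own hashtag the turned genes were Il17a (1.16), Il17f (1.75), Klf2 (0.16) and Ccl5 (-0.092) in T cells, mt-Co1 (-0.41) and Ighm (0.020) in B cells, Jchain (-0.62) and Kit (-0.19). In double-positive cells Hmgb2 (0.11) and mt-Co2 (-0.040) turned there, and over all cells Hspa1a (0.012). Other class rules turned Jchain (-0.18 and -0.14), Gzma in other cells (0.59), Mki67 in B cells (-0.85) and Hspa1b in Mzb1 single-positive cells (0.47).

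Shares, het minus WT in percentage points, also turned at 80% own hashtag, to -14.7 for T, -0.163 for other, 8.92 for double-positive, -5.18 for mixed and 17.9 for B with double-positive cells, and among T cells to 2.27 for Cd4, -1.63 for Cd8a and -0.018 for Cd4 with Cd8a. Thinned to 1000 UMI they turned to -2.72 for B, -1.42 for Mzb1 single-positive, -0.236 for Cd4 with Cd8a and -0.067 for T cells with none of the 3 genes. The hashtag limit kept unlike parts of each class and genotype, so shares under it do not estimate those of all member cells. Beyond this, the cause was not tested.

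Leaving out a library gave 0 to 20 calls in T cells, 2 to 14 in B, 0 to 1 in Mzb1 single-positive, 0 to 19 in other, 1 to 4 in double-positive and 1 to 7 in all cells, and 2 to 9 genes differing between classes. Signs turned for Ifng (-0.12 to 0.39), Foxp3 (-1.86 to 0.22), Gzmb (-0.34 to 0.31) and Ccl5 (-0.072 to 0.30) in T cells, and for Ighm (-0.18 to 0.061) and Cd22 (-0.11 to 0.28) in B cells. They turned for St8sia6 (-1.49 to 0.20), Igha (-0.41 to 0.088) and Jchain (-0.33 to 0.23) in Mzb1 single-positive cells and for Ncr1 (-1.02 to 0.21) and Kit (-0.22 to 0.66) in other cells. St8sia6 in double-positive cells (-0.57 to 0.044), H2-Q2 over all cells (-2.48 to 0.23) and the shares of B (-1.78 to 1.01), Cd8a (-0.279 to 7.34) and Cd4 with Cd8a T cells (-0.128 to 0.353) turned as well. Of the other comparisons of single genes, 1054 kept direction and side of the threshold, 140 passed only under an alternative and 74 no longer passed.

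Each genotype had 3 libraries, of 1 het mouse or 2 pooled WT mice each. Endings with less pure hashtags can carry cells of another genotype, and classes rest on 1 UMI of a marker, which free RNA can also give. Low genes rest on few UMI per library, and a missed threshold does not show equal levels.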

Other observations

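Some transcripts were high in 1 library only. H2-Q2, a class I-like gene, had 11.0, 5.59 and 5.11 CPM in het libraries, against 8.38, 73.8 and 5.02 CPM in WT libraries over all member cells, high in WT library 2. Gm10260 had 0.551, 11.7 and 2.19 CPM in het libraries, against 1.76, 816 and 2.37 CPM in WT libraries over all member cells, again high in WT library 2. S100a8, a neutrophil gene, had 0 UMI in het and 130 UMI in WT other cells, all 130 in library 2. Globin and other red cell markers summed to 2473 CPM in het library 2 and to 2598 and 677 CPM in WT libraries 1 and 2 of B cells, and to 14.9 CPM or less in the other het and WT libraries.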
